A study of Mus musculus with 18 samples.

Results

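Hepatokines are proteins that hepatocytes release into the blood and that act on fat, muscle, vessels or the liver itself. The 10 genes described here were chosen by name from a table of 16245 genes, with earlier results of these data known. They are *Ahsg*, *Fetub*, *Angptl4*, *Angptl8*, *Inhbe*, *Inhba*, *Selenop*, *Enho*, *Tsku* and *Lect2*. All 10 were present in the table, and all 10 passed the filter on low counts in each comparison. Their transcripts were measured by RNA-seq in the livers of wild-type male C57BL/6 mice (C57BL/6J background in the study's methods) that were given a NASH diet and warm housing (29 °C) from 8 weeks of age. A NASH diet is an obesogenic diet used to produce a fatty, inflamed and scarred liver, and every group received it. Single-housed mice were assigned to vehicle, to recombinant GDF15, or to pair-feeding, with 6 mice in each group. GDF15, a circulating stress cytokine that lowers appetite, was injected under the skin once daily in the morning, and the dose is not given for each mouse in the labels. The daily ration of pair-fed mice was set by the intake of GDF15 mice on the day before, and livers were taken in the fed state. GDF15 against vehicle therefore measured the whole effect of the treatment, GDF15 against pair-fed measured the effect at matched food intake, and pair-fed against vehicle measured the effect of the smaller ration.

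Several of these proteins control the supply of fatty acids. ANGPTL4 and ANGPTL8 restrain lipoprotein lipase, the enzyme on vessel walls that releases fatty acids from circulating triglyceride, with ANGPTL4 known for its rise in fasting and ANGPTL8 for its rise with feeding and insulin. Activin E, the product of *Inhbe*, is known to act on fat cells and to restrain lipolysis, whereas activin A, the product of *Inhba*, is a broadly expressed member of the same family. Fetuin-A (*Ahsg*) and fetuin-B (*Fetub*) are abundant plasma glycoproteins of the cystatin superfamily, and fetuin-A binds calcium phosphate and can inhibit the insulin receptor. Selenoprotein P (*Selenop*) carries selenium from the liver to other tissues, adropin (*Enho*) is a small secreted peptide tied to fuel choice, tsukushi (*Tsku*) is a small leucine-rich proteoglycan, and LECT2 is a chemotactic protein that binds the receptor TIE1.

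The genome around the RefSeq start of 4 of these genes is shown. *Ahsg* and *Fetub* are neighbours that rose together. *Angptl8* and *Inhbe*, which moved in opposite directions against vehicle, held the same 8-letter word. The call of *Angptl8* against vehicle was lost in 20 of 27 alternatives, and it did not pass against pair-fed. Sequences are RefSeq windows (build GRCm38.p6) that end at the base before the RefSeq start site, and 8 of the 10 genes had such a window. The 250 bases of *Ahsg* (chr16:22891765-22892014, + strand) lay in an intron of a longer GENCODE model of the gene, and those of *Angptl8* (chr9:21835260-21835509, + strand) lay just before the gene. For *Fetub* (chr16:22918330-22918359, + strand) and *Inhbe* (chr10:127352011-127352040, - strand) only 30 bases are shown, since their windows overlapped exons of the GENCODE models. The overlap was 48 bases for *Fetub* and all 250 for *Inhbe*, whose RefSeq start (127351848) lay inside its GENCODE model. Capitals mark the longest run shared by the *Ahsg* and *Fetub* windows on the same strand, CTGTTTGCAAG, and the word TGATGCAA, or its reverse complement TTGCATCA, in the windows of *Angptl8* and *Inhbe*.
Ahsg: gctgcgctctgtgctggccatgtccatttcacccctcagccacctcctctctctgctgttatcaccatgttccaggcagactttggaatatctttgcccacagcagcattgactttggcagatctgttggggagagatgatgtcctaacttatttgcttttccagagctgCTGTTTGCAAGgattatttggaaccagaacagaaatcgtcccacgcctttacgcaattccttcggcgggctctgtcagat
Fetub: tggcgcactCTGTTTGCAAGatataaaagg
Angptl8: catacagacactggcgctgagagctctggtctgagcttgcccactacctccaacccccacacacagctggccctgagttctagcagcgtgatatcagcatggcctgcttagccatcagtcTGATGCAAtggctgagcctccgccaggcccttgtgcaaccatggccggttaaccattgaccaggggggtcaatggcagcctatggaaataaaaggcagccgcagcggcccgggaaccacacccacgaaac
Inhbe: catcctctttcTTGCATCAtgcatgtccac
The shared run of 11 bases stood at positions -80 to -70 from the start of *Ahsg* and at -43 to -33 from that of *Fetub*, and 13 of 32851 windows of the same length held it on either strand (0.0396%). It contains TGTTTGC, a word of forkhead binding sites, which 1413 windows held (4.30%). In *Fetub* it was followed by TATAAA at -31 to -26, a TATA-box word found in 4063 windows (12.4%), and *Inhba* held the same word at -91 to -86. TGATGCAA, the word of the composite element bound by C/EBP and ATF factors, stood at -130 to -123 in *Angptl8* and, on the other strand, at -181 to -174 in *Inhbe*, and was present in 260 windows (0.791%). The words CACGTG, an E-box, and AGGTCA, a nuclear receptor half-site, were absent from the windows of all 8 genes and present in 1978 (6.02%) and 4607 (14.02%) of all windows. These words were chosen after the expression values had been seen, and a match describes letters only. The shared run was picked as common to the *Ahsg* and *Fetub* windows, which are among the 13. Its share of windows is therefore not a test.

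Total counts ranged from 18059478 to 23215915 over the vehicle libraries, from 16508864 to 25001486 over those of GDF15 and from 17180057 to 35301853 over those of pair-fed mice. The libraries were those of liver, with *Alb*, the albumin gene, taking 6.24% ± 0.352 (SD, n = 6) of all counts in the vehicle group. Summed normalized counts of 9 measured hepatocyte markers were 2312514 to 2644727 in the GDF15 livers, 1644964 to 2077212 in the vehicle livers and 1520060 to 2259686 in the pair-fed livers. The sums of 10 stellate and fibroblast markers moved the other way, from 9384 to 16598 in the vehicle livers and 8434 to 13662 in the pair-fed livers to 4725 to 6988 in the GDF15 livers. In bulk tissue, fewer cells of a type and less RNA per cell cannot be told apart. Of 14667 genes tested between GDF15 and vehicle, 2323 were higher and 2562 lower in GDF15 livers at an adjusted p under 0.05. With total counts in place of median-of-ratios scaling, the split was 722 higher and 4946 lower, and log2 changes of all genes shifted by a median of -0.17. The same change of scaling moved the comparison of GDF15 with pair-fed from 1911 higher and 1983 lower to 626 higher and 4439 lower, with a shift of -0.16. Each change below is on the median-of-ratios scale.

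GDF15 livers held more *Ahsg*, *Fetub*, *Angptl8* and *Enho* transcript and less *Inhbe* and *Selenop* transcript than vehicle livers. Against pair-fed livers they held more *Ahsg*, *Fetub* and *Enho* and less *Inhbe*, *Selenop* and *Tsku*. The largest rise was that of *Enho*, at 2.51-fold over vehicle and 3.70-fold over pair-fed, and the largest falls were those of *Inhbe*, to 0.539 of vehicle, and *Tsku*, to 0.501 of pair-fed. No hepatokine gene passed between pair-fed and vehicle livers. In numbers, 6 of the 10 genes passed against vehicle, where 33.3% of all genes tested did, with 4 higher (15.8% of all genes) and 2 lower (17.5%). Against pair-fed, 6 of the 10 passed, where 27.1% of all genes did, with 3 higher (13.3%) and 3 lower (13.8%). The counts of passing genes in the gene lists below stand beside the same shares of all genes. With an absolute log2 fold change above 1 required as well, *Enho* alone passed in each comparison, beside 6.27% and 3.37% of all genes. The median log2 fold change over the 10 genes was 0.16 against vehicle and 0.14 against pair-fed, beside 0.0024 and -0.00077 over all genes tested. Both comparisons use the same GDF15 livers, so their values are set side by side and not counted as independent.

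**Figure D1:**
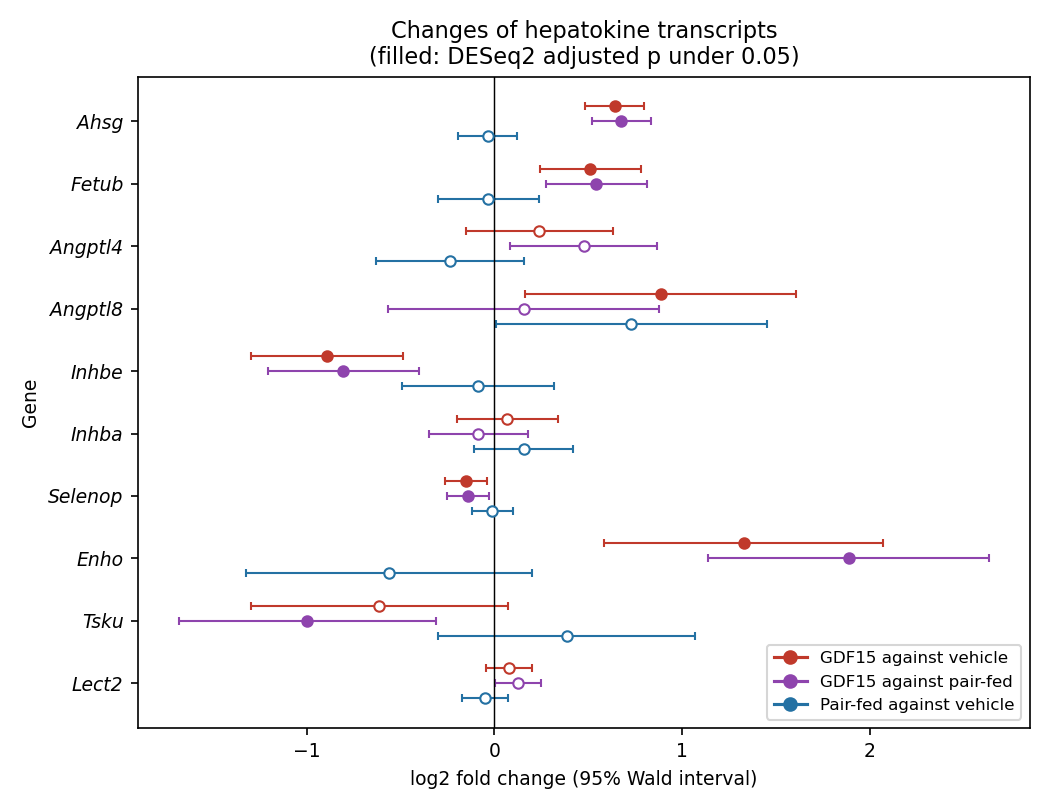
Log2 fold change (horizontal axis) of each hepatokine gene (vertical axis) with its 95% Wald interval from DESeq2, for GDF15 against vehicle, GDF15 against pair-fed and pair-fed against vehicle, each with 6 mice per group. Filled points passed at an adjusted p under 0.05. *Ahsg*, *Fetub*, *Inhbe*, *Selenop* and *Enho* are filled in both GDF15 comparisons, and no point of the pair-fed against vehicle comparison is filled.

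**Figure D2:**
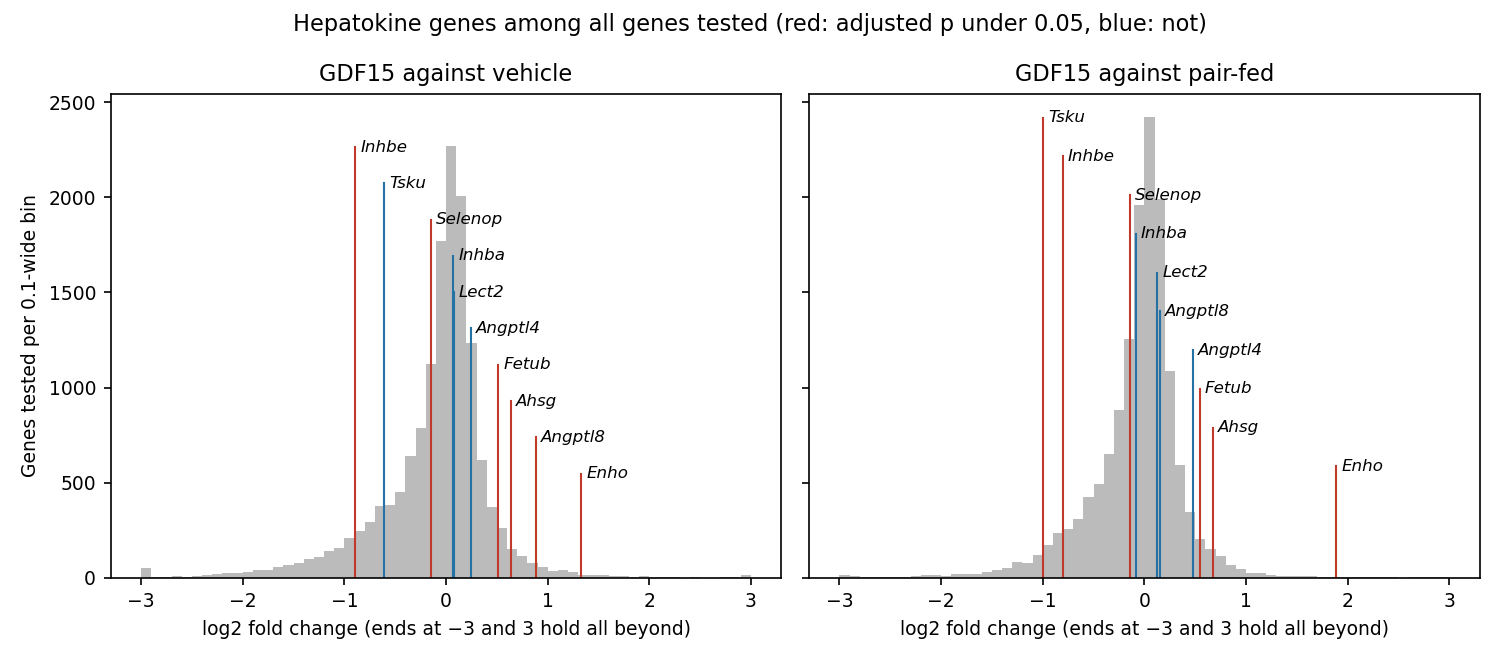
Number of genes (vertical axis) per bin of log2 fold change (horizontal axis) among all 14667 genes tested between GDF15 and vehicle and all 14353 tested between GDF15 and pair-fed, with the hepatokine genes as vertical lines whose heights only separate the names. *Inhbe* and *Tsku* lie on the lower side and *Fetub*, *Ahsg* and *Enho* on the higher side in both panels.

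The spread of levels among the 10 genes was wide. Levels were compared between genes as TPM, computed here from the counts and the longest annotated transcript of each gene. On that scale *Selenop* (6724 ± 499, SD, n = 6) and *Ahsg* (6205 ± 251) led in vehicle livers, with ranges that overlapped. *Fetub* (377 ± 60.6) and *Lect2* (330 ± 27.9) formed the next pair and differed by less than their spread. *Angptl8* (71.0 ± 18.04), *Inhbe* (67.1 ± 12.6), *Tsku* (57.7 ± 28.7) and *Angptl4* (57.6 ± 14.01) followed at levels that could not be ordered, and *Enho* (3.87 ± 2.13) and *Inhba* (2.55 ± 0.358) were lowest. In GDF15 livers the TPM level of *Inhbe* was 31.4 ± 13.0, that of *Angptl8* 115 ± 56.6 and that of *Enho* 8.24 ± 6.48. The TPM level of *Ahsg* rose to 8385 ± 874 and that of *Selenop* was 5259 ± 592, so that *Ahsg* led in GDF15 livers. With the median transcript length of each gene in place of the longest, *Selenop* led in all 3 groups, at 9475 ± 699 against 2974 ± 113 for *Ahsg* in vehicle livers and 7461 ± 839 against 4044 ± 374 in GDF15 livers. By median length *Angptl4* was at 66.3 ± 15.9 in vehicle livers, above *Angptl8* (30.1 ± 7.57), *Inhbe* (28.4 ± 5.42) and *Tsku* (26.8 ± 13.2). The ratio of *Ahsg* to *Selenop* counts within a library needs no length. It was 0.660 ± 0.0591 (SD, n = 6) in vehicle livers, 1.15 ± 0.206 in GDF15 livers and 0.647 ± 0.0428 in pair-fed livers, and the lowest GDF15 library (0.969) lay above the highest vehicle (0.752) and pair-fed (0.687) libraries.

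**Figure D3:**
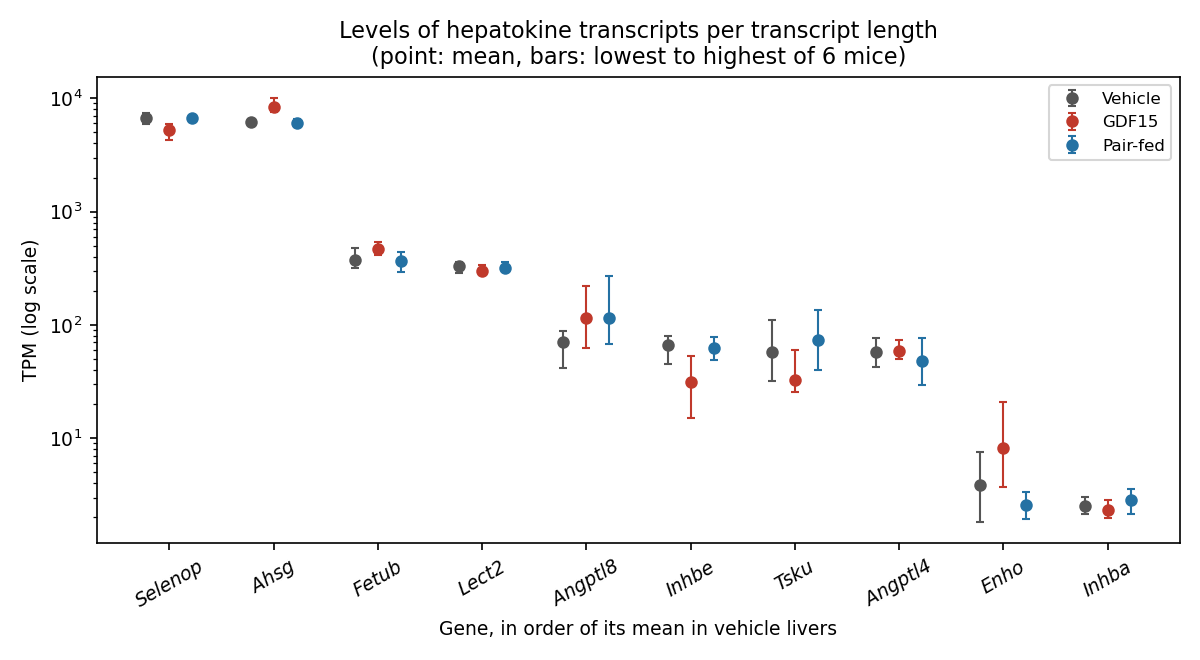
Counts per kilobase of the longest transcript in TPM (vertical axis, log scale) for each hepatokine gene in order of its mean in vehicle livers (horizontal axis). Points are means and bars run from the lowest to the highest of 6 mice per group. *Selenop* and *Ahsg* lie far above the rest, *Fetub* and *Lect2* follow, and *Enho* (at most 21.0) and *Inhba* (at most 3.57) are lowest.

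The fetuins gave the steadiest rise. *Ahsg*, encoding fetuin-A (chromosome 16, 22891277 to 22899449, + strand), had normalized counts of 75313 at the lowest, 86640 at the median and 92851 at the highest in vehicle livers. The corresponding values were 113302, 129201 and 162153 in GDF15 livers and 73591, 85207 and 87403 in pair-fed livers. All 6 GDF15 livers lay above all 12 others, a separation shown by 5.75% of all genes tested in the upward direction against vehicle and by 4.86% against pair-fed. The log2 fold change of *Ahsg* was 0.64 ± 0.08 (SE) against vehicle (DESeq2 adjusted p = 1.13e-13) and 0.68 ± 0.08 against pair-fed (adjusted p = 5.39e-15). The share of all counts taken by *Ahsg* was 0.431% ± 0.0180 (SD, n = 6) in vehicle livers, 0.595% ± 0.0560 in GDF15 livers and 0.418% ± 0.0195 in pair-fed livers. An antisense transcript, Gm30505, overlaps *Ahsg* on the other strand in the annotation, was not in the table, and whether the counting used strand is not given in the sources used here.

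*Fetub*, encoding fetuin-B (chromosome 16, 22918334 to 22939778, + strand), had normalized counts with a median of 5355 in vehicle livers (range 4487 to 6990), 7791 in GDF15 livers (6664 to 9287) and 5600 in pair-fed livers (4159 to 6782). In each comparison 5 of 6 GDF15 livers lay above every control, and the sixth overlapped the upper end of the controls. *Fetub* changed by 0.51 ± 0.14 (log2, SE) against vehicle (DESeq2 adjusted p = 0.00127) and 0.54 ± 0.14 against pair-fed (adjusted p = 0.000762). The fetuins had similar mean proportions in the groups, with 15.58 ± 2.09 (SD, n = 6) *Ahsg* counts per *Fetub* count in vehicle livers, 16.7 ± 0.595 in GDF15 livers and 15.62 ± 2.37 in pair-fed livers. Single livers ranged from 12.8 to 18.3 in vehicle, 15.8 to 17.5 in GDF15 and 12.9 to 18.9 in pair-fed. Fits to replicate numbers 4 to 6 alone gave *Fetub* a log2 fold change of 0.38 against pair-fed (adjusted p = 0.0792).

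The hepatocyte markers moved with the fetuins. *Alb* rose by a log2 fold change of 0.42 ± 0.11 against vehicle (adjusted p = 0.00107) and 0.41 ± 0.11 against pair-fed (adjusted p = 0.00168), and 6 of 9 measured hepatocyte markers rose in each comparison and none fell. Per *Alb* count, *Ahsg* was at 0.0691 ± 0.00215 (SD, n = 6) in vehicle livers, 0.0803 ± 0.00657 in GDF15 livers and 0.0685 ± 0.00996 in pair-fed livers. The lowest GDF15 value, 0.0736, was above the highest vehicle value, 0.0727, but within the pair-fed range of 0.0551 to 0.0807. Per *Alb* count, *Fetub* was at 0.0045 ± 0.000596 in vehicle, 0.0048 ± 0.000306 in GDF15 and 0.00441 ± 0.000427 in pair-fed livers, which overlapped. The part of the hepatocyte markers in the rise of the fetuins was not tested.

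*Ahsg* and *Fetub* open a run of 5 cystatin-superfamily genes on chromosome 16. The gap between them is 18.9 kb, and *Hrg* (histidine-rich glycoprotein), *Kng2* and *Kng1* (kininogens, the precursors of bradykinin) follow at gaps of 11.3, 24.2 and 28.4 kb. All 5 rose in both GDF15 comparisons. The log2 fold change against vehicle was 0.52 ± 0.11 for *Hrg*, 0.27 ± 0.08 for *Kng2* and 0.42 ± 0.11 for *Kng1*, with adjusted p-values of 3.25e-05, 0.00339 and 0.000868. Against pair-fed these genes rose by 0.48, 0.29 and 0.40. With total counts as the scale, *Kng2* stayed above 0 but no longer passed (0.10, adjusted p = 0.267 against vehicle, and 0.12, adjusted p = 0.151 against pair-fed), while the other 4 passed in both comparisons. *Kng1* and *Kng2* are closely similar copies in mouse, so reads may be split between them.

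**Figure D4:**
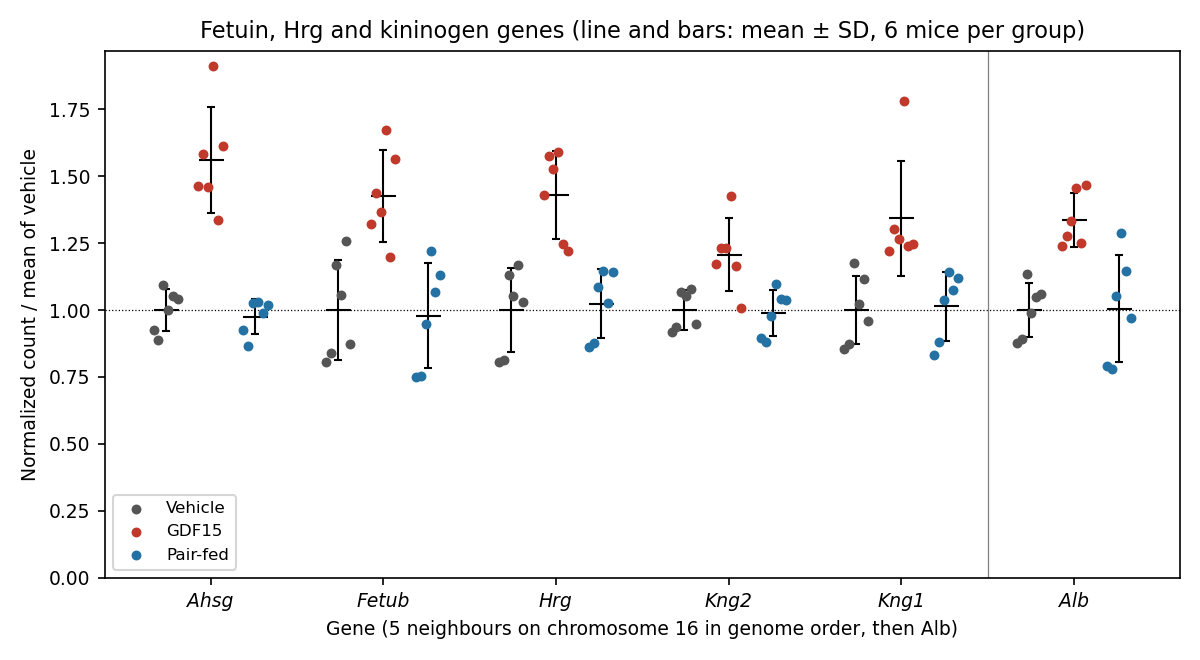
Normalized count divided by the vehicle mean (vertical axis) for the 5 neighbouring genes of chromosome 16 in genome order and for *Alb* (horizontal axis), with 6 mice per group as points and mean ± SD as lines and bars. All GDF15 points of *Ahsg*, *Hrg* and *Kng1* lie above all vehicle and pair-fed points, whereas those of *Fetub* and *Kng2* overlap them.

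Fetuin-A is known to inhibit the insulin receptor. Of 12 genes of insulin receptor signalling, 2 rose and 2 fell against vehicle, and 4 rose and 2 fell against pair-fed. Among all genes tested, 33.3% passed against vehicle and 27.1% against pair-fed. The receptor gene *Insr* rose by 0.27 ± 0.06 on the log2 scale against vehicle and the kinase gene *Akt2* by 0.18 ± 0.04. *Grb10*, an adaptor that restrains the receptor, fell by 0.67 on the log2 scale and *Pik3r1*, a regulatory subunit of PI3-kinase, fell by 0.22. With total counts as the scale, *Insr* (0.10, adjusted p = 0.130) and *Akt2* (0.01, adjusted p = 0.832) no longer passed.

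The inhibitors of lipoprotein lipase had positive log2 fold changes in both GDF15 comparisons, and the only call was that of *Angptl8* against vehicle. *Angptl4* (chromosome 17, 33773750 to 33781830, - strand) had a median normalized count of 1675 in vehicle livers (range 1332 to 2396), 1931 in GDF15 livers (1693 to 2538) and 1335 in pair-fed livers (962 to 2470). The ranges overlapped widely, and 2 pair-fed livers, replicate 4 at 2470 and replicate 5 at 1768, lay within the GDF15 range. For *Angptl4* the log2 fold change was 0.24 ± 0.20 against vehicle (adjusted p = 0.373) and 0.48 ± 0.20 against pair-fed (adjusted p = 0.0611), and neither passed. Against pair-fed, *Angptl4* passed without pair-fed replicate 4 (0.68, adjusted p = 0.000795), and also without GDF15 replicate 3 (adjusted p = 0.0481) or pair-fed replicate 5 (adjusted p = 0.0485). It also passed in fits to numbers 1 to 3 (0.72, adjusted p = 0.00088).

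*Angptl8* (chromosome 9, 21835510 to 21837347, + strand) had a median normalized count of 623 in vehicle livers (range 339 to 683), 899 in GDF15 livers (566 to 1939) and 652 in pair-fed livers (534 to 2293). Of the 6 GDF15 livers, 5 lay above every vehicle liver, but none lay above every pair-fed liver, since pair-fed replicate 4 was at 2293 and the other 5 pair-fed livers were at 863 or less. Against vehicle its log2 fold change was 0.89 ± 0.37 (DESeq2 adjusted p = 0.0484) and against pair-fed it was 0.16 ± 0.37 (adjusted p = 0.793). The call against vehicle stood at the threshold and was lost in 20 of 27 alternatives, among them edgeR (adjusted p = 0.0530) and the fit without GDF15 replicate 5 (0.61, adjusted p = 0.185). Without pair-fed replicate 4, *Angptl8* was higher in GDF15 than in pair-fed livers (0.65, adjusted p = 0.0304). The model of *Angptl8* overlaps that of *Dock6*, which lies on the other strand.

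Of 17 tested genes of the lipoprotein lipase axis, 6 rose and 3 fell against vehicle, and 5 rose and 3 fell against pair-fed. *Lpl*, the lipase gene itself, fell by 1.66 on the log2 scale against vehicle (adjusted p = 1.82e-09), and *Apoc2*, its activator, fell by 0.72 (adjusted p = 6.63e-12). *Lipc*, the hepatic lipase gene, rose by 0.72 ± 0.09, and *Lrp1*, a remnant receptor, rose by 0.42 ± 0.08.

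*Angptl4* and *Angptl8* are known to respond to PPAR-alpha and to insulin, respectively. Of 18 PPAR-alpha targets, 5 fell and 1 rose against vehicle, where 33.3% of all genes tested passed. Against pair-fed, 4 of these targets fell and none rose, where 27.1% of all genes passed. Those that fell against vehicle included *Plin2*, a lipid droplet coat (-0.79), *Acot2* (-1.21), *Vnn1* (-0.58) and *Ehhadh* (-0.31). Beside the same shares of all genes, 2 of 16 lipogenic genes induced by insulin and carbohydrate rose and none fell in each comparison. These were *Mlxipl*, encoding ChREBP (0.52 ± 0.12), and *Nr1h3*, encoding LXR-alpha (0.23 ± 0.05), whereas *Thrsp* (0.62 ± 0.31, adjusted p = 0.114) and *Scd1* (-0.34 ± 0.17, adjusted p = 0.103) did not pass against vehicle. With total counts as the scale, *Nr1h3* no longer passed (0.0568, adjusted p = 0.374) and *Scd1* fell (-0.52, adjusted p = 0.00395).

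The activin genes moved in different directions. *Inhbe* (chromosome 10, 127348857 to 127354411, - strand) had a median normalized count of 3346 in vehicle livers (range 2310 to 3815), 1674 in GDF15 livers (880 to 2893) and 3028 in pair-fed livers (2247 to 3940). In each comparison 5 of 6 GDF15 livers lay below every control liver, and only GDF15 replicate 3, at 2893, was within the control range. *Inhbe* had a log2 fold change of -0.89 ± 0.21 against vehicle (DESeq2 adjusted p = 0.000153) and -0.80 ± 0.21 against pair-fed (adjusted p = 0.000934). GDF15 livers numbered 4 to 6 were at 880 to 1481 and those numbered 1 to 3 at 1868 to 2893. Fits to the mice numbered 4 to 6 gave -1.37 against vehicle and -1.45 against pair-fed, and fits to those numbered 1 to 3 gave -0.54 (adjusted p = 0.0125) and -0.26 (adjusted p = 0.276).

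*Inhbc*, which encodes activin C and lies 1.91 kb from *Inhbe* on the same strand, rose by 0.47 ± 0.13 against vehicle (adjusted p = 0.00188) and by 0.39 ± 0.13 against pair-fed (adjusted p = 0.0144). These neighbours thus changed in opposite directions. With total counts as the scale the change of *Inhbc* stayed above 0 (0.29, adjusted p = 0.0691, and 0.21, adjusted p = 0.201). *Inhbb* was at 44.6 normalized counts in GDF15 livers, 68.7 in vehicle and 58.5 in pair-fed livers on average, and did not pass (-0.63 ± 0.35, adjusted p = 0.152 against vehicle).

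*Inhba* (chromosome 13, 16011851 to 16031621, + strand) had a median normalized count of 151 in vehicle livers (range 128 to 165), 146 in GDF15 livers (143 to 184) and 166 in pair-fed livers (124 to 205). The groups overlapped throughout. Its log2 fold change was 0.07 (95% interval -0.20 to 0.34) against vehicle and -0.09 (-0.35 to 0.18) against pair-fed, and the first value became -0.10 with total counts as the scale. The number of *Inhbe* counts per *Inhba* count was 22.3 ± 5.35 (SD, n = 6) in vehicle, 11.4 ± 5.01 in GDF15 and 19.5 ± 6.52 in pair-fed livers. Of 16 genes of the activin axis, 3 rose and 1 fell against vehicle, and 4 of 15 tested rose and none fell against pair-fed. These are receptors, antagonists and SMAD genes listed together with *Inhbc*, whose rise is counted in both comparisons. The type II receptor gene *Acvr2a* rose by 0.26 ± 0.09 in each comparison, *Smad4*, the shared SMAD, rose by 0.21 against pair-fed (adjusted p = 0.0181) and was at 0.17 (adjusted p = 0.0640) against vehicle, and *Smad7*, an inhibitory SMAD, did not pass (0.43 ± 0.22 against vehicle). *Acvr2a* no longer passed against vehicle with total counts as the scale (0.10, adjusted p = 0.428).

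*Inhbe* is known as a target of the stress factors ATF4 and CHOP. Of 13 genes of the ATF4 programme, 2 fell and 1 rose in each comparison, beside 33.3% (vehicle) and 27.1% (pair-fed) of all genes tested. *Atf3*, a stress-induced factor, fell by 1.37 on the log2 scale against vehicle and *Cth*, an enzyme of cysteine synthesis, rose by 0.61, whereas *Atf4* itself (0.15 ± 0.11) and *Sesn2* (-0.20 ± 0.14) did not pass. *Sesn2* fell with total counts as the scale (-0.38, adjusted p = 0.0329).

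*Selenop* (chromosome 15, 3268547 to 3280508, + strand) was the most abundant of the 10 by normalized count in vehicle livers, with a median of 129662 (range 117254 to 141332). The median was 117355 in GDF15 livers (99650 to 127789) and 129044 in pair-fed livers (121349 to 132648). Of the GDF15 livers, 3 lay below every vehicle liver and 4 below every pair-fed liver. The log2 fold change was small, at -0.15 ± 0.06 against vehicle (DESeq2 adjusted p = 0.0269) and -0.14 ± 0.06 against pair-fed (adjusted p = 0.0481). The call was lost in 9 of 27 alternatives against vehicle and in 19 of 27 against pair-fed, among them edgeR (adjusted p = 0.0678 and 0.110). In mice numbered 1 to 3 the change against vehicle was -0.0039, and in those numbered 4 to 6 it was -0.30 (adjusted p = 0.00255). The size of the fall depended on the scale, and with total counts it was -0.32 (adjusted p = 3.77e-05) and -0.30 (adjusted p = 0.000132).

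As a share of all counts, *Selenop* went from 0.656% ± 0.0477 (SD, n = 6) in vehicle livers to 0.525% ± 0.0577 in GDF15 livers, and was at 0.647% ± 0.0213 in pair-fed livers. Per *Alb* count the GDF15 livers lay below all vehicle and pair-fed livers, with 0.0552 to 0.0798 *Selenop* counts in GDF15 livers, 0.0883 to 0.119 in vehicle and 0.0836 to 0.135 in pair-fed livers. *Alb* itself rose by 0.42 and 0.41 on the log2 scale against vehicle and pair-fed, more than *Selenop* fell (-0.15 and -0.14). *Selenop* moved opposite to the hepatocyte markers, 6 of 9 of which rose. *Ccdc152* overlaps *Selenop* on the other strand. Of 22 genes of selenium supply and other selenoproteins, 6 rose and 3 fell against vehicle, and 6 rose and 2 fell against pair-fed. *Gpx4*, the lipid peroxide reductase, fell by 0.85 on the log2 scale against vehicle and by 0.74 against pair-fed, and *Selenof* fell by 0.21 and 0.11. *Sephs2*, which makes the selenium donor, rose by 0.43 ± 0.09 and *Scly*, which recovers selenium from selenocysteine, rose by 0.30 ± 0.05 against vehicle.

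*Enho*, encoding adropin (chromosome 4, 41638144 to 41640324, - strand), was low, with a median normalized count of 36.1 in vehicle livers (range 23.3 to 81.3), 82.5 in GDF15 livers (49.4 to 290) and 28.0 in pair-fed livers (23.3 to 41.2). All 6 GDF15 livers lay above all 6 pair-fed livers, and 3 of 6 lay above all vehicle livers. DESeq2 gave *Enho* a log2 fold change of 1.33 ± 0.38 against vehicle (adjusted p = 0.00271) and 1.89 ± 0.38 against pair-fed (adjusted p = 1.73e-05). A single library, GDF15 replicate 4 at 290, stood apart, and without it the change was 0.77 (adjusted p = 0.0319) and 1.34 (adjusted p = 0.000129). As with *Inhbe*, the GDF15 livers numbered 4 to 6 (92.2 to 290) differed from those numbered 1 to 3 (49.4 to 72.7). Fits to numbers 4 to 6 gave 1.90 and 2.46, and fits to numbers 1 to 3 gave 0.40 (adjusted p = 0.546) and 0.98 (adjusted p = 0.0944). The labels do not say what the numbers stand for, and their part in these values was not tested. The model of *Enho* overlaps that of *Dnaic1*, which lies on the other strand.

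*Tsku* (chromosome 7, 98350668 to 98361328, - strand) varied widely within groups. Its median normalized count was 1256 in vehicle livers (range 881 to 2875), 804 in GDF15 livers (747 to 1699) and 1723 in pair-fed livers (986 to 3658). Of the GDF15 livers, 5 were at 918 or less and lay below every pair-fed liver, and replicate 5 was at 1699. Its log2 fold change was -0.61 ± 0.35 against vehicle (adjusted p = 0.170) and -0.998 ± 0.35 against pair-fed (DESeq2 adjusted p = 0.0202). Without pair-fed replicate 4, which was at 3658, the change against pair-fed was -0.71 (adjusted p = 0.0895), and fits to numbers 4 to 6 gave -0.998 (adjusted p = 0.275). Pair-fed replicate 4 was also the highest pair-fed liver for *Angptl4* and *Angptl8*. Without that liver, *Angptl4* and *Angptl8* passed against pair-fed, and *Tsku* and *Selenop* did not. Against vehicle, *Tsku* passed without GDF15 replicate 5 (-0.86, adjusted p = 0.0426) and in fits to numbers 1 to 3 (-0.76, adjusted p = 0.0148), and without vehicle replicate 6 the change was -0.30 (adjusted p = 0.503).

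*Lect2* (chromosome 13, 56542464 to 56548502, - strand) varied little, with a median normalized count of 2490 in vehicle livers (range 2324 to 2804), 2599 in GDF15 livers (2455 to 3047) and 2436 in pair-fed livers (2316 to 2605). Its log2 fold change was 0.08 (95% interval -0.05 to 0.20) against vehicle and 0.13 ± 0.06 against pair-fed (adjusted p = 0.118), and both values were below 0 with total counts as the scale (-0.10 and -0.04). Among 7 receptor genes named for adropin, LECT2 and tsukushi, 2 fell and 1 rose against vehicle, and 2 fell against pair-fed. *Tgfbr2* and *Tgfbr1*, the TGF-beta receptors, fell by 0.87 and 0.25 on the log2 scale against vehicle, and *Met*, the receptor for hepatocyte growth factor, rose by 0.20 against vehicle but not with total counts as the scale (0.0338, adjusted p = 0.756). *Tie1*, the LECT2 receptor, did not pass (-0.18 ± 0.18).

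**Figure D5:**
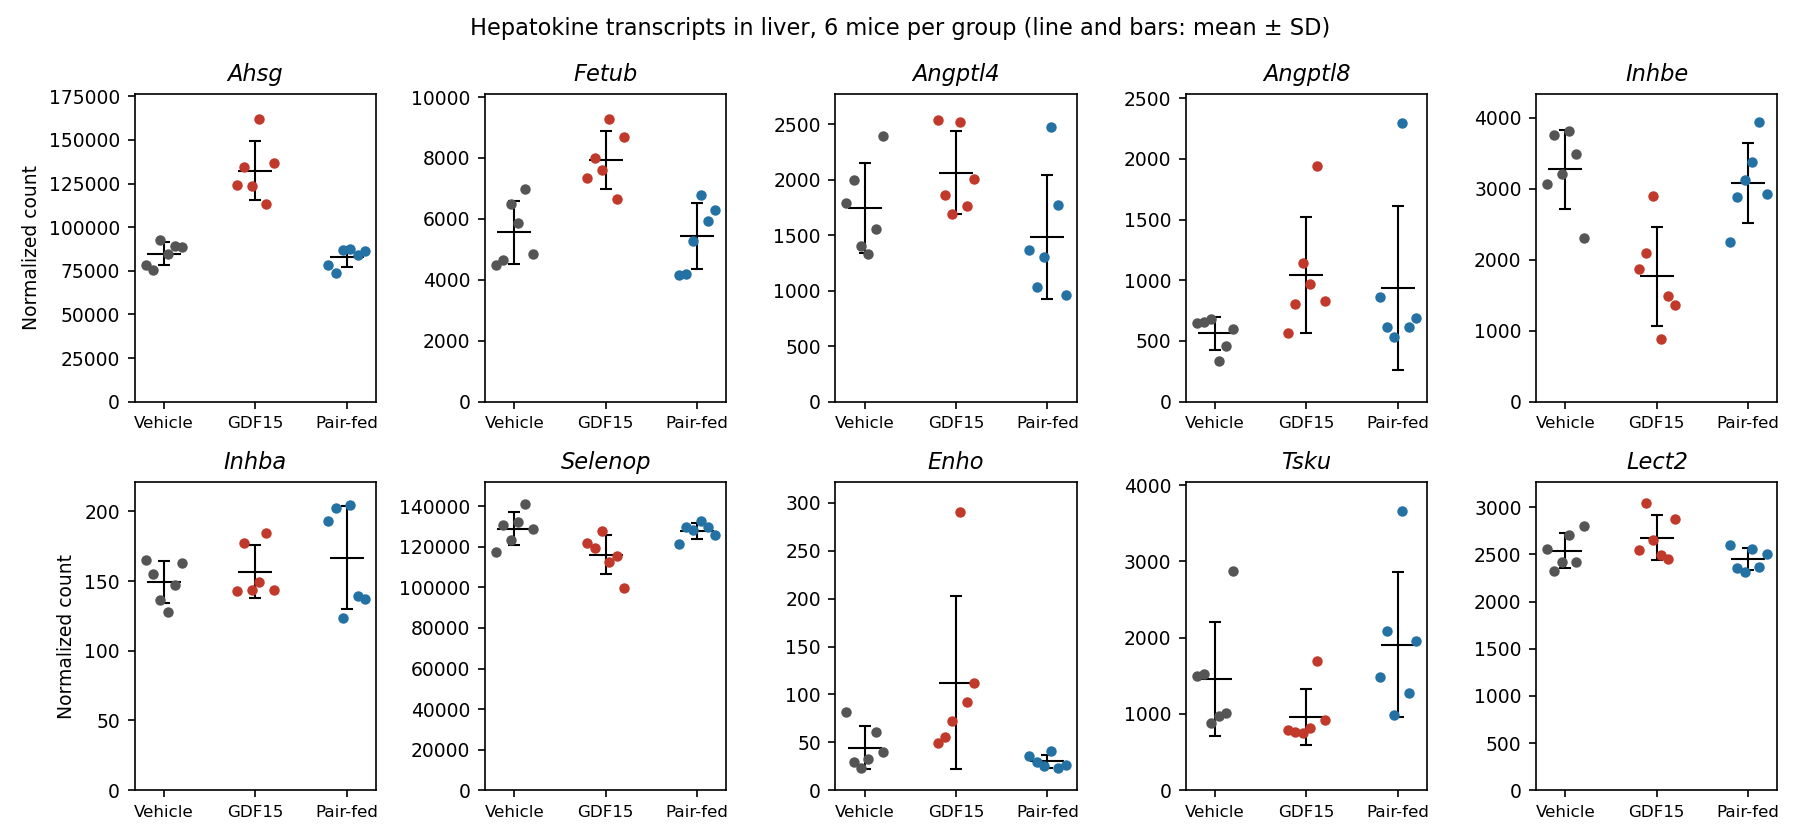
Normalized count (vertical axis, from 0) of each hepatokine gene in every liver of the vehicle, GDF15 and pair-fed groups (horizontal axis), with 1 point per mouse and mean ± SD of 6 mice. GDF15 points of *Ahsg* lie wholly above the other groups, and single livers stand apart for *Angptl8* (pair-fed), *Enho* (GDF15) and *Tsku* (vehicle and GDF15).

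Pair-feeding alone gave small differences in most of these genes. None of the 10 passed between pair-fed and vehicle livers (adjusted p = 0.998 for each by DESeq2), where 0.0% of 16242 genes tested passed, and edgeR also called none. At an unadjusted p under 0.05 there was 1 of the 10, *Angptl8* (0.73 ± 0.37, unadjusted p = 0.0472), and 718 of all genes. For *Ahsg* the difference was -0.04 (95% interval -0.19 to 0.12), for *Selenop* -0.01 (-0.12 to 0.10) and for *Lect2* -0.05 (-0.17 to 0.07). The intervals were wide for *Enho* (-1.32 to 0.20), *Tsku* (-0.30 to 1.07) and *Angptl8* (0.01 to 1.45). With 6 mice per group, differences anywhere within them remained compatible with the data.

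Other secreted liver proteins were counted beside the 10 genes. Of 26 tested genes of other liver-secreted hormones, 12 rose and 4 fell against vehicle, and 10 rose and 4 fell against pair-fed, with a median log2 fold change of 0.29 and 0.24. *Igfbp2*, an IGF-binding protein, rose by 1.41 ± 0.16 against vehicle and *Agt*, angiotensinogen, by 0.45 ± 0.07. *Gpnmb*, a glycoprotein of lipid-laden macrophages, fell by 2.60 on the log2 scale. Markers of cells other than hepatocytes were mostly lower in GDF15 livers. Against vehicle, 10 of 10 stellate, 9 of 12 macrophage, 3 of 8 leukocyte and 6 of 6 cholangiocyte markers fell and none rose, while 1 of 8 endothelial markers fell and 1 rose. Against pair-fed, 9 stellate, 7 macrophage, 3 leukocyte, 1 cholangiocyte and 1 endothelial marker fell and none rose. Of the adipocyte markers, *Cfd* alone could be tested and fell by 3.58, and of the pancreas markers *Cela1* alone could be tested and rose by 0.60. The summed macrophage markers were 3627 to 7455 in GDF15 livers, 5492 to 10321 in vehicle and 5622 to 8848 in pair-fed livers, and those of cholangiocytes were 1030 to 2097, 2372 to 8649 and 2159 to 6026. Summed leukocyte markers were 197 to 320, 318 to 610 and 368 to 547, and endothelial markers 3183 to 5310, 3974 to 5397 and 4380 to 5582, in the same order. No measured marker was at 0 in every library. Most of the cholangiocyte sum was *Spp1*, with a mean of 1227 of 1450 in GDF15 livers, 4867 of 5310 in vehicle and 3145 of 3446 in pair-fed livers. Summed adipocyte markers were 10.3 to 16.4 in GDF15 livers, 45.5 to 278 in vehicle and 32.3 to 169 in pair-fed livers. The part of these cells in the hepatokine values was not tested.

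For each hepatokine gene, the genes with the most similar pattern over the 18 livers were found among 10882 genes by the mean absolute difference of centred log2 normalized counts. This measure is a description, since all genes share the same libraries. *Ahsg* was followed most closely by *Serpinf2* and *Cpn2*, each at 0.067, where the own mean deviation of *Ahsg* was 0.290. *Fetub* was closest to *Apom* (0.102) and *Ebp* (0.106), against an own deviation of 0.291, and *Inhbe* to *Pnldc1* (0.174) and *Paqr7* (0.186), against 0.466. The nearest genes were farther off relative to the own deviation for *Enho* (*Il1r1*, 0.442, and *Tat*, 0.468, against 0.735), *Tsku* (*Rcan1*, 0.306, and *Hspa1b*, 0.325, against 0.562) and *Angptl8* (*Cep152*, 0.322, and *Klf10*, 0.333, against 0.486). For *Angptl4* they were *Cep85* (0.207) and *Foxo1* (0.212) against 0.332, and for *Selenop* *Pcsk6* (0.0477) and *Extl3* (0.0499) against 0.0840. For *Inhba* (*Usp34* and *Megf9*) and *Lect2* (*Ahcyl1* and *Mrpl24*) the nearest genes differed by 66.9% or more of the own deviation.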

How the data were processed

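Liver RNA-seq of 18 mice was used, 6 each of vehicle, GDF15 and pair-fed, grouped by sample title. Libraries were made with a directional kit. Trim Galore was used by the authors for trimming and Salmon for quantification, and they deposited estimated counts per gene as whole numbers, not scaled for depth. The labels name the build mm10, and tool versions are not given in the sources used here. The lowest row total was 5.

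DESeq2 (1.42.0, in R 4.3.3) was fitted to all 18 samples with a term for group alone, using median-of-ratios scaling, Wald tests, independent filtering and no shrinkage. A gene passed at a Benjamini-Hochberg adjusted p under 0.05 over all genes tested, and the stricter call added an absolute log2 fold change above 1. Normalized counts are counts divided by size factors, with 1 added before logs. Levels per length used GENCODE M21 transcripts (GRCm38), which matched 15936 of 16245 genes. A Salmon estimate can be split among near-identical genes.

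Alternatives were edgeR (version 4.0.16, quasi-likelihood, TMM), TMM sizes in DESeq2, genes kept only with 10 or more counts in 6 or more samples, independent filtering off, the 12 samples compared, a replicate block, numbers 1 to 3 or 4 to 6 alone, leaving out each sample, and median transcript length. Scaling by total counts was chosen after seeing the data. The procedure was tested on simulated data. All 10 hepatokine genes were named. From each gene list up to 4 genes of mean normalized count 50 or more with the lowest adjusted p against vehicle were named, with paralogs and, per hepatokine gene, the 2 nearest in pattern. Some genes that this rule names are not reported here. *Alb* and the motif words were chosen after values were seen. Members and lists were chosen with earlier results of these data known.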

Additional observations from a re-analysis of the deposited data

Results flagged for a closer look

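Of 30 sets of 6 livers examined (10 genes in 3 groups), 4 held a liver whose distance to the nearest other was above the 95% critical value of Dixon's ratio of gap to range. Chance flags about 1 in 20 sets, or 1.5 of 30. *Angptl8* was at 2293 normalized counts in pair-fed replicate 4, and the next pair-fed liver was at 863. *Enho* was at 290 in GDF15 replicate 4, with the next GDF15 liver at 112. *Tsku* was at 2875 in vehicle replicate 6, with the next at 1526, and at 1699 in GDF15 replicate 5, with the next at 918. All 4 were the highest livers of their group.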

How the results depend on the processing

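*Ahsg* kept its direction and its call in all 27 alternatives in both GDF15 comparisons, with log2 fold changes of 0.47 to 0.68 against vehicle and 0.51 to 0.72 against pair-fed. *Fetub* and *Inhbe* kept both in 27 of 27 against vehicle and 26 of 27 against pair-fed. With the fold threshold, 1 of the 10 genes passed in each comparison, and the genes passing numbered 920 against vehicle and 484 against pair-fed. Mice numbered 1 to 3 gave 3007 genes against vehicle, and those numbered 4 to 6 gave 2588 against vehicle and 2186 against pair-fed. Between pair-fed and vehicle, 3 genes passed in the fit of 12 samples, 3 with the replicate block, 4 in numbers 1 to 3, 18 in numbers 4 to 6 and 0 to 2 when 1 sample was left out, none of them among the 10. Fewer samples enter the fits to 3 numbers. The cause of the other changes was not tested.

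With total counts as size factors, directions turned against vehicle for *Inhba* (-0.10), *Lect2* (-0.10), *Smad4* (-0.0051) and *Atf4* (-0.0278), and against pair-fed for *Lect2* (-0.0379). In numbers 4 to 6 they turned against vehicle for *Lect2* (-0.0176), *Scd1* (0.11) and *Sesn2* (0.0018), against pair-fed for *Inhbb* (0.0739), and between pair-fed and vehicle for *Fetub* (0.0960) and *Inhbe* (0.0856). In numbers 1 to 3 they turned for *Atf4* against vehicle (-0.0626) and for *Selenop* between pair-fed and vehicle (0.0337). Leaving out 1 sample gave -0.12 to 0.65 for *Angptl8* against pair-fed, and between pair-fed and vehicle -0.104 to 0.0447 for *Fetub* and -0.0371 to 0.0176 for *Selenop*. The 0.65 for *Angptl8*, without pair-fed replicate 4, passed (adjusted p = 0.0304).

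In the labels, same-numbered samples shared only a number. Their deviations correlated at -0.0336, 0.0281 and 0.205 on average in the comparisons of GDF15 with vehicle, GDF15 with pair-fed and pair-fed with vehicle. Samples with different numbers correlated at 0.00908, -0.00546 and -0.0412 on average, in the same order. Best correlation with the own number was seen in 0, 2 and 1 of 6 pairs. Between pair-fed and vehicle, 4 of 6 same-numbered pairs correlated above 0.1. With the replicate block, *Angptl8* against vehicle (adjusted p = 0.124) and *Selenop* against pair-fed (adjusted p = 0.0693) no longer passed, and *Angptl4* passed against pair-fed (adjusted p = 0.0479). No other call among the 10 changed.

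The lowest genes, *Enho* and *Inhba*, rest on the fewest counts, and 3 counts correspond to 0.0850 to 0.182 CPM over the libraries. As no molecular identifiers were used, this floor covers counting error only.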
